A study of Mus musculus with 8 samples.

Results

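The genes described here are 33 mouse imprinted genes, listed by name and grouped by the imprinted locus in which they lie; no measured value entered the rule, but the list was drawn up with earlier results of these data known. Of these, 32 had a probe on the array, with 59 of the 55681 non-control probes between them; 54 probes were named through a RefSeq accession and 5 through the symbol H19 in the array tables, and no probe was matched to Rian. Of the 32 genes, 27 passed the filter for the test, which asked that a probe be well above background on at least 2 of the 8 arrays, and 23 of these 27 were above background on all 8. The other 4 were Dio3, Slc22a18, Ascl2 and Nnat, and counts over the 27 do not stand for all 33.

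The arrays compare N18TG2, a mouse neuroblastoma line, with 2/4, a single clone of it made to express choline acetyltransferase, each untreated and with all-trans retinoic acid (RA). The 4 groups hold 2 arrays each: parental untreated, parental with 1 µM RA, clone untreated, and clone with 1 µM RA. Cells were grown in 10% fetal bovine serum, RA was given in medium with 1% serum, and the clone was kept in 200 µg/mL G418, so G418 goes with the clone. The medium of the untreated cells and the length of RA treatment are not given in the sources used here. RA and a change of serum therefore cannot be told apart, and differences with RA are those of RA in its medium. Whether the 2 arrays of a group hold separate cultures is not stated, so p-values reflect only how far these arrays vary, which may be technical.

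An imprinted gene is expressed mainly from the copy inherited from 1 parent. Which copy is expressed depends on DNA methylation and chromatin marks laid down in the germ line. Imprinted genes lie in clusters, often with a long noncoding RNA expressed from one copy and protein-coding genes from the other, and many act on growth of the fetus and placenta, on nutrient uptake and on the brain. The arrays measured the summed RNA of both copies, so nothing below tells the copies apart, and in bulk RNA fewer cells expressing a gene and less RNA per cell cannot be told apart either. Levels below are log2 intensity minus the 75th percentile of the array, so that 0 is that percentile, and differences are on the same log2 scale with the standard error from limma. A gene was called where limma's p, adjusted by Benjamini-Hochberg over 26207 features, was under 0.05. Of these features 15155 had a gene symbol, and 11052 had none and stood under their name on the array. Counts and shares of "all genes" below are over all these features, named or not.

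All arrays lay on 1 slide and were scanned together. The parental RA and the untreated clone samples were in row 1 and the remaining ones in row 2, so slide row and group cannot be told apart in any comparison of a pair of groups, and row cancels only in the averages over both treatments or both lines. The array clone RA replicate 1 stood apart: well-above-background probes made up 71.9% of it, compared with 47.8% to 62.8% of any other array, and results that rest on it are given with and without it. The defining genes of sympathetic neuroblasts were above background on all arrays for 12 of 12, with a summed level of 235 to 314 in parental untreated, 99.1 to 146 in parental RA, 289 to 291 in clone untreated and 468 to 548 in clone RA arrays, as linear intensity relative to the 75th percentile. Of 12 hippocampal neuron genes 4 were above background on all arrays, and Prox1, Neurod2, Neurod6 and Emx2 on none; the labels' extraction protocol names hippocampus. Of 6 tested hippocampal genes, 1 was called higher and 2 lower in the clone on average over both treatments. Of 12 neuroblast genes 3 were called higher and 3 lower, where 27.7% of all genes passed, 16.1% higher and 11.6% lower. A sum of linear levels is set mostly by its brightest genes. The summed level of the hippocampal list was 7.38 to 9.40 in parental untreated and 9.16 to 9.34 in parental RA arrays. In clone untreated arrays it was 0.903 to 0.907, and in clone RA arrays 0.588 to 0.674. Of 10 Schwann cell and glia genes 4 were above background on all arrays and Cldn11 on none, and their summed level was 2.03 to 2.20, 1.39 to 1.65, 1.01 to 1.04 and 0.898 to 1.17 in the same order of groups. Of 10 genes of vessels, blood and microglia 5 were above background on all arrays and Cdh5, Tek, Hbb-bs and Cx3cr1 on none, with a summed level of 4.42 to 10.02 over the arrays. Of 10 fibroblast genes 3 were above background on all arrays and Lum, Thy1, Fap and Twist1 on none. The summed level of the fibroblast list lay between 1.46 and 3.45 over the arrays. Of 6 tested fibroblast genes, 2 were called higher and 0 lower in the clone on average over both treatments. The part of these marker levels in the results below was not tested. As checks of the labels, Cyp26b1, the RA-degrading enzyme, was 43.3-fold higher with RA in the parental line and 83.2-fold in the clone (limma, adjusted p = 0.0156 and 0.0117), whereas Chat did not pass between the lines (average difference 1.89 ± 0.90, limma adjusted p = 0.162), and Lmna was higher in the clone on average by 0.70 ± 0.18 (limma, adjusted p = 0.0297).

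The clone differed from the parental line at 11 of 27 tested imprinted genes on average over both treatments, 7 higher and 4 lower, where 27.7% of all genes passed, 16.1% higher and 11.6% lower. The genes higher in the clone were Slc22a18, Igf2r, Ascl2, Peg10, Phlda2, Magel2 and Airn, and those lower were Dlk1, H19, Mirg and Mkrn3. The median difference over the 27 genes was 0.20 against 0.12 over all genes tested. With both lines untreated, 10 of 27 passed, 5 in each direction, where 9.84% of all genes passed, 6.15% higher and 3.69% lower. Without either untreated clone array, 4 of these 10 calls were kept, those of Dlk1, H19, Igf2r and Slc22a18, and without either parental untreated array 6 were. With both lines in RA, 9 of 27 passed, 6 higher and 3 lower, where 23.2% of all genes passed, 13% higher and 10.3% lower. The calls of Mirg and Phlda2 in RA were lost without either parental RA array, and that of Magel2 without parental RA replicate 2. That of Phlda2 was also lost with normexp and with quantile normalization. All 9 calls, and all 11 of the average, were kept without clone RA replicate 1.

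**Figure D1:**
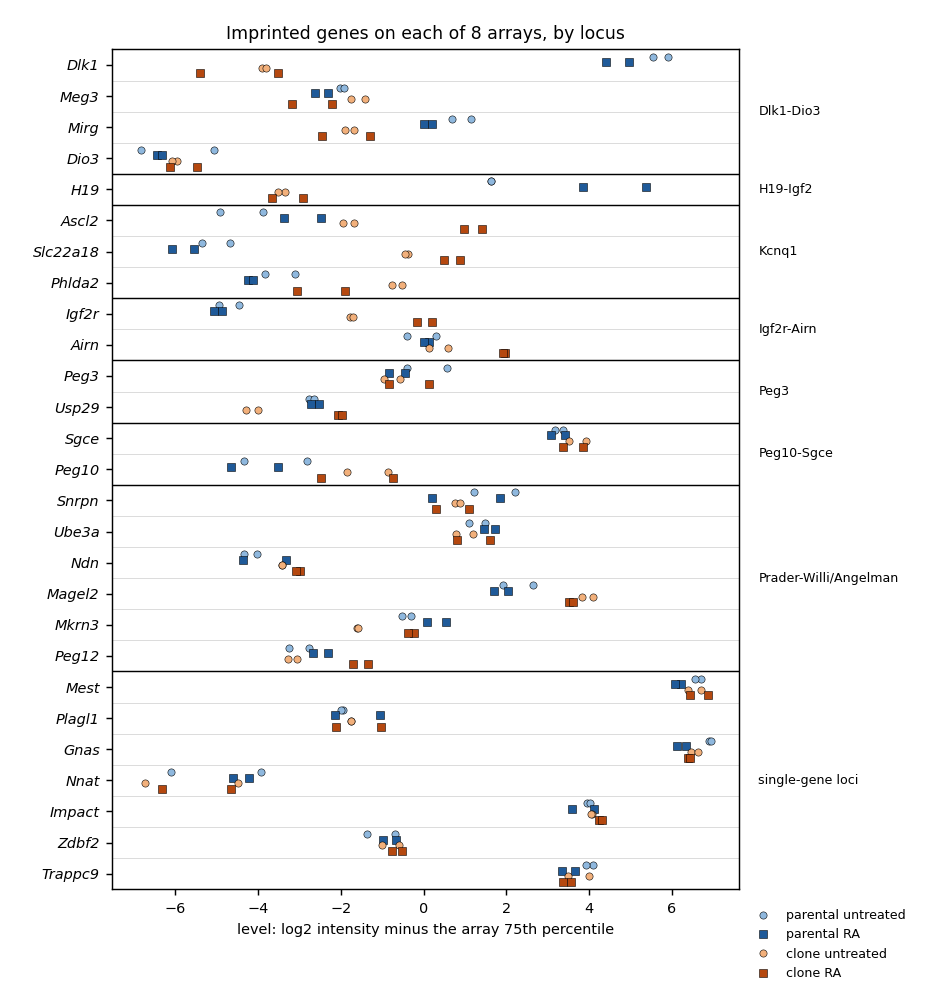
Level of each of the 27 tested imprinted genes on each of the 8 arrays, as log2 intensity minus the array 75th percentile, with 1 point per array, coloured by group and grouped by locus. Dlk1 and H19 lie far apart between the lines, while Mest lies between 6.07 and 6.87 on all 8 arrays.

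In the Dlk1-Dio3 locus, the coding gene Dlk1 and the noncoding RNA Mirg were lower in the clone, while the probe that represents the noncoding RNA Meg3 did not differ. Dlk1 encodes a membrane protein related to Notch ligands and known from neuroendocrine tumours and fat cell precursors. Its level was 5.55 and 5.91 in the parental untreated arrays, 4.40 and 4.96 with RA, -3.91 and -3.81 in the untreated clone, and -3.51 and -5.40 in the clone with RA. The lines did not overlap, with the 4 clone arrays far below the 4 parental ones. The difference was -9.60 ± 0.59 untreated and -9.13 ± 0.59 with RA (limma, adjusted p = 0.000269 and 0.000194). For a further Dlk1 probe no clone array was well above background, and against that background the parental level was at least 495-fold higher untreated and at least 241-fold higher with RA, or 321-fold without clone RA replicate 1 (limma over all probes, adjusted p = 0.000867 and 0.00105). The RefSeq window of the Dlk1 promoter, 250 bases before to 50 after the start, lies at chr12:109452573-109452872 on the plus strand of GRCm38.p6 and is shown because Dlk1 had the largest difference between the lines of the 27 genes; capitals mark CG, the dinucleotide that carries DNA methylation.
Dlk1: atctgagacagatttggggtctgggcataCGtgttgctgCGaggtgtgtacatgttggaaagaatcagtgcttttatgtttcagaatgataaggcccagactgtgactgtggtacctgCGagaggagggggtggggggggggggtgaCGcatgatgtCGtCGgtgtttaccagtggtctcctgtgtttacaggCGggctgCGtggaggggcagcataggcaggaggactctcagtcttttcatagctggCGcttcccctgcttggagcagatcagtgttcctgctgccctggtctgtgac
It holds 9 CG, where the median over 32851 such windows was 7 and the quartiles were 3 and 20.

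Mirg is a noncoding RNA that hosts microRNAs, and 10 hairpins of the RefSeq table lie within its span. Its level was 1.15 and 0.67 in parental untreated, 0.20 and 0.01 in parental RA, -1.89 and -1.69 in clone untreated, and -1.30 and -2.46 in clone RA arrays. All 4 clone arrays lay below all 4 parental arrays. The average difference between the lines was -2.34 ± 0.30 (limma, adjusted p = 0.00162).

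Meg3, the noncoding RNA expressed from the maternal copy, was at -2.02 and -1.93 in parental untreated, -2.63 and -2.32 in parental RA, -1.76 and -1.41 in clone untreated, and -2.21 and -3.19 in clone RA arrays by the probe for NR_027652. The lines overlapped, and the average difference was 0.08 with a 95% interval of -0.55 to 0.72. A probe for the transcript NR_003633 was well above background on all 4 clone arrays and on no parental array, so only a bound can be given. The clone was at least 2.00-fold higher untreated and at least 4.96-fold higher with RA (limma over all probes, adjusted p = 0.251 and 0.0713, neither past the threshold). Without clone RA replicate 1, where it read -1.81 against -5.32 on replicate 2, the bound with RA was 1.47-fold. Averaged over both treatments, this probe was called higher in the clone in the fit over all probes, where 25% of probes passed. Dio3, the enzyme that inactivates thyroid hormone, was above background on 2 of 8 arrays, with levels from -6.83 to -5.06. Rtl1, a retrotransposon-derived gene of the same locus, was above background only on clone RA replicate 1 and was not tested.

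In the H19-Igf2 locus, the noncoding RNA H19 was lower in the clone. H19 is expressed from the maternal copy and is the host of miR-675, whose arms in RefSeq are shown with bases 2 to 8, the seed, in capitals because H19 is the microRNA host with the largest difference here; the arrays did not measure them.
mmu-miR-675-5p: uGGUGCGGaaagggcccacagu
mmu-miR-675-3p: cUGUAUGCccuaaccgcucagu
H19 was at 1.62 on both parental untreated arrays, 3.84 and 5.38 with RA, -3.35 and -3.53 in the untreated clone, and -3.67 and -2.92 in the clone with RA. Both parental RA arrays lay above both parental untreated arrays, while the clone groups overlapped. The clone was 33.4-fold lower untreated and 239-fold lower with RA (limma, adjusted p = 0.0016 and 0.000207). All 5 H19 probes were called in the fit over all probes, where 25% of probes passed, with average line differences from -7.66 to -5.89. Igf2, the fetal growth factor of the locus, was well above background only on parental RA replicate 2; its level was -6.67 and -5.63, -6.24 and -5.41, -5.67 and -5.99, and -5.63 and -6.00 in parental untreated, parental RA, clone untreated and clone RA arrays. No difference in Igf2 could be measured at this signal.

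In the Kcnq1 domain, Ascl2, Slc22a18 and Phlda2 were all higher in the clone. Ascl2 is a transcription factor needed in the placenta, Slc22a18 a transporter-like membrane protein and Phlda2 a small pleckstrin-homology protein that limits placental growth. Their promoter windows are shown because all 3 genes differed between the lines; they lie at chr7:142969215-142969514 on the minus strand, chr7:143473539-143473838 on the plus strand and chr7:143502475-143502774 on the minus strand of GRCm38.p6, with CG in capitals.
Ascl2: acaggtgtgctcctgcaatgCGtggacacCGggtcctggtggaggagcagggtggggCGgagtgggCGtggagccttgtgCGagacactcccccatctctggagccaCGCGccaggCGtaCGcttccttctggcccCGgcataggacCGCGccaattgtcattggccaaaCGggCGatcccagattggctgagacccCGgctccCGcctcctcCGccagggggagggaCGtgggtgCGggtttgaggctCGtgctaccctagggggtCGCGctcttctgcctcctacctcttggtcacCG
Slc22a18: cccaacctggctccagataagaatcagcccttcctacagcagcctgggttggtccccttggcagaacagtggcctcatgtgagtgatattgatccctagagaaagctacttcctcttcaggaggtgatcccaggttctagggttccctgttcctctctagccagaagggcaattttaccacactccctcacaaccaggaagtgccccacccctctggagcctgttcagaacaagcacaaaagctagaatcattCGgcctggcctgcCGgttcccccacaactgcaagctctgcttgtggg
Phlda2: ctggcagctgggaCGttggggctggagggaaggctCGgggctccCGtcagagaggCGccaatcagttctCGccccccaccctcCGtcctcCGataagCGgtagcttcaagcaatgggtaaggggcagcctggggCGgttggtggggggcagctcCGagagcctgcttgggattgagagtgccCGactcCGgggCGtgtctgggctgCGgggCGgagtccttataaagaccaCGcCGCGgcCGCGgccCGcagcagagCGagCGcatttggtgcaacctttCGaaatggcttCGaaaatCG
The windows hold 23, 2 and 26 CG, and at least as many are held by 21.5%, 85.9% and 16.9% of all windows.

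Slc22a18 was at -5.35 and -4.68 in parental untreated, -6.07 and -5.55 in parental RA, -0.38 and -0.45 in clone untreated, and 0.87 and 0.50 in clone RA arrays. The lines were separate, and the probe was above background on 1 of 2 arrays in each parental group. The average difference was 5.55 ± 0.25 (limma, adjusted p = 2.4e-05), and 3.21 with normexp background correction.

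Ascl2 was at -4.91 and -3.88 in parental untreated, -2.49 and -3.36 in parental RA, -1.96 and -1.69 in clone untreated, and 1.40 and 0.98 in clone RA arrays. Each RA group lay above the untreated group of its line, and each clone group above the parental group of the same treatment; 1 of 2 parental untreated arrays was above background. The average difference between the lines was 3.34 ± 0.32 (limma, adjusted p = 0.00048), and 2.15 with normexp.

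Phlda2 was at -3.10 and -3.83 in parental untreated, -4.24 and -4.13 in parental RA, -0.77 and -0.51 in clone untreated, and -3.07 and -1.89 in clone RA arrays. The clone arrays lay above all parental arrays, although 1 clone RA array came close to a parental untreated one. The average difference was 2.26 ± 0.32 (limma, adjusted p = 0.0025), and under quantile normalization the call was lost (limma, adjusted p = 0.0578).

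The Igf2r-Airn locus was also higher in the clone. Igf2r is the receptor that carries IGF2 to the lysosome, and Airn the noncoding RNA that runs antisense to it and silences the paternal Igf2r copy in most tissues. Both windows are shown since the genes overlap on opposite strands: Igf2r at chr17:12769657-12769956, minus strand, and Airn at chr17:12741061-12741360, plus strand, GRCm38.p6, with CG in capitals.
Igf2r: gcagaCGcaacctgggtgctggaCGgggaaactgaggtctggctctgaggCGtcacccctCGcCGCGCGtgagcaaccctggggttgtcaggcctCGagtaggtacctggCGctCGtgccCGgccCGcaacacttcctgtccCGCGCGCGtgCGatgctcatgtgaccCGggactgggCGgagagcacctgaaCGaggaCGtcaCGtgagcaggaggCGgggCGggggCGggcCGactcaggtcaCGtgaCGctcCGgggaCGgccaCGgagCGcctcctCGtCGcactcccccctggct
Airn: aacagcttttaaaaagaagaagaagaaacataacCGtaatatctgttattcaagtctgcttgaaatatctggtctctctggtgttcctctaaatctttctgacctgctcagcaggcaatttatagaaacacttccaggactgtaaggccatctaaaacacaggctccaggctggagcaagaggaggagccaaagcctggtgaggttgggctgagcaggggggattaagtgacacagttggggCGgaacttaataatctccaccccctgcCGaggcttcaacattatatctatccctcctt
The windows hold 34 and 3 CG, and at least as many are held by 7.73% and 76.7% of all windows. Igf2r was at -4.46 and -4.94 in parental untreated, -5.07 and -4.88 in parental RA, -1.78 and -1.71 in clone untreated, and -0.16 and 0.20 in clone RA arrays. The lines did not overlap. The clone was 7.77-fold higher untreated and 31.8-fold higher with RA (limma, adjusted p = 0.00145 and 0.000159). With normexp the untreated difference was 1.23 and the call was lost (limma, adjusted p = 0.205). The RA difference was 3.20 at its smallest over 19 alternatives, all of which kept the call. The lowest signal well above background was -4.61 and -5.57 on the parental untreated arrays and -5.34 and -6.40 on the parental RA arrays. On replicate 1 of each parental group Igf2r lay close to that limit, so the folds are uncertain in size. Airn was at -0.41 and 0.30, 0.13 and 0.02, 0.14 and 0.60, and 1.97 and 1.92 in parental untreated, parental RA, clone untreated and clone RA arrays. Only the clone RA arrays stood apart from the other 6. With both lines in RA the clone was higher by 1.87 ± 0.33 (limma, adjusted p = 0.00833), and untreated the lines overlapped. A dimmer Airn probe was higher by 1.73 ± 0.58 with both lines in RA and did not pass (limma over all probes, adjusted p = 0.0808). The average line call for Airn was lost without clone untreated replicate 2 (limma, adjusted p = 0.0534).

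**Figure D2:**
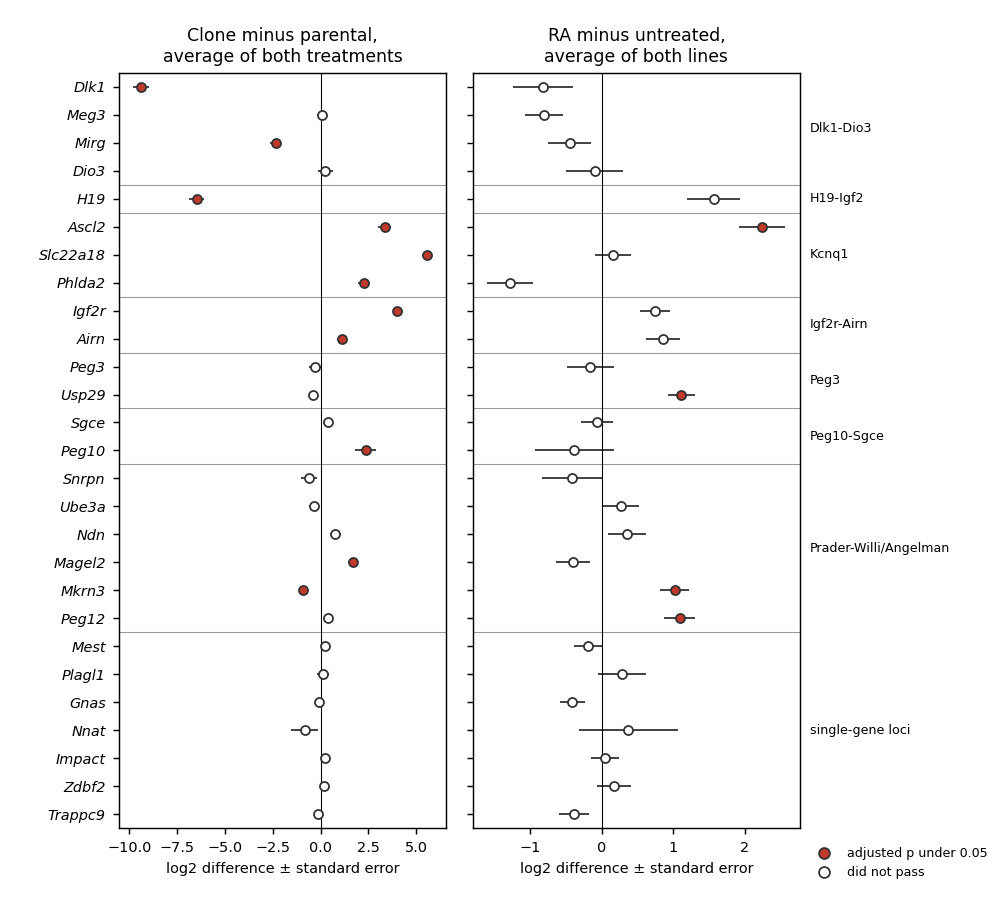
Difference between the lines, averaged over both treatments (left), and between RA and untreated, averaged over both lines (right), for the 27 tested genes as log2 difference with its standard error; filled points passed limma at an adjusted p under 0.05. Of the filled points on the left 7 are above 0 and 4 below, and on the right all 4 are above 0.

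Of the other loci, 1 gene of the Peg10-Sgce pair, Magel2 and Mkrn3 differed between the lines on average. Peg10, a retrotransposon-derived gene needed in the placenta, was at -2.82 and -4.34 in parental untreated, -4.65 and -3.52 in parental RA, -0.86 and -1.84 in clone untreated, and -0.73 and -2.49 in clone RA arrays. The clone was higher on average by 2.35 ± 0.55 (limma, adjusted p = 0.0195), without overlap in either treatment, but neither single comparison passed by this brighter probe (limma, adjusted p = 0.135 untreated and 0.0612 with RA). The other Peg10 probe was called in both, with differences of 2.21 ± 0.36 and 2.47 ± 0.36 (limma over all probes, adjusted p = 0.014 and 0.00503), as was the mean of both probes (limma, adjusted p = 0.0335 and 0.0127). The average call was lost with normexp, where the difference was 1.33, and without parental untreated replicate 2, parental RA replicate 1 or clone untreated replicate 1, with an adjusted p of up to 0.0729 over these fits in limma. Sgce, a sarcoglycan, lay at 3.08 to 3.93 on all arrays and did not pass.

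In the Prader-Willi/Angelman cluster, Magel2, a partner of ubiquitin ligases, was at 2.65 and 1.92 in parental untreated, 2.03 and 1.70 in parental RA, 4.10 and 3.83 in clone untreated, and 3.51 and 3.62 in clone RA arrays. The lines did not overlap, and the average difference was 1.69 ± 0.24 (limma, adjusted p = 0.0024). Mkrn3, a ring finger protein, was at -0.30 and -0.53, 0.08 and 0.55, -1.62 and -1.59, and -0.23 and -0.38 in parental untreated, parental RA, clone untreated and clone RA arrays. The clone was lower on average by -0.90 ± 0.20 (limma, adjusted p = 0.0158), with overlap between clone RA and parental untreated arrays. That call was lost without parental untreated replicate 1 or either untreated clone array (limma, adjusted p of up to 0.0622). Snrpn, Ndn, Ube3a and Peg12 did not pass; Ndn had a 95% interval of 0.14 to 1.42 and an adjusted p of 0.0715 in limma.

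The loci with no called gene between the lines included several abundant ones. Mest, a hydrolase-like enzyme, was at 6.07 to 6.87 and Gnas, the stimulatory G protein subunit, at 6.12 to 6.94 on all arrays. Impact lay at 3.59 to 4.30, Trappc9 at 3.34 to 4.09, Plagl1 at -2.13 to -1.03 and Zdbf2 at -1.36 to -0.53. The 95% intervals of the average line difference were -0.27 to 0.69 for Mest, -0.52 to 0.33 for Gnas and -0.67 to 0.93 for Plagl1. Nnat was above background on 6 of 8 arrays. Grb10, an adaptor that dampens insulin and IGF signalling, was above background only on clone RA replicate 1, and Zim1 and Rasgrf1 on no array; these were not tested.

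Probes of the same gene also differed for Gnas. The Gnas probe for NM_019690 was higher in the clone by 1.86 ± 0.23 (limma over all probes, adjusted p = 0.00198), while the brighter probe for NM_001077510 differed by -0.09 ± 0.19; with the mean of both the gene was called (0.88, limma, adjusted p = 0.0126). The 2 Nnat probes differed in sign, at -0.83 ± 0.70 and 1.38 ± 0.68, and neither passed. Both probes of Dlk1, Peg10 and Mkrn3 were called in the same direction.

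**Figure D3:**
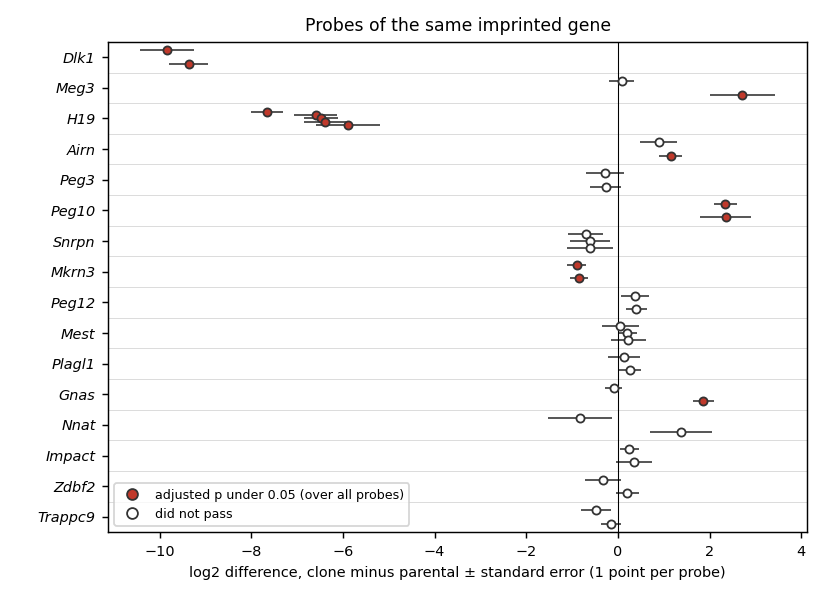
Average difference between clone and parental line for each probe of the tested genes with more than 1 tested probe, as log2 difference with its standard error; filled points passed limma at an adjusted p under 0.05 over all probes. The H19 probes lie between -7.66 and -5.89, and the Meg3 and Gnas probes each include 1 called and 1 uncalled point; the called Meg3 probe was above background on no parental array, so its point is no measured size.

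Of all genes, 5.91% passed with RA on average over both lines, 3.17% higher. Among the 27 tested imprinted genes 4 passed, all higher with RA. These were Ascl2, Usp29, Mkrn3 and Peg12. The average rise was 2.24 ± 0.32 for Ascl2 (limma, adjusted p = 0.017) and 1.02 ± 0.20 for Mkrn3 (limma, adjusted p = 0.0351). In the clone alone, 5 of 27 passed, where 4.67% of all genes passed, 2.6% higher: Ascl2, Usp29, Igf2r, Peg12 and Airn, all higher. In the parental line none of 27 passed in limma, with 4 at an unadjusted p under 0.05, where 1.13% of all genes passed. With trended and robust variance 1 passed, H19. The clone and parental RA comparisons do not share arrays, but each average shares its arrays with both.

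Usp29, a deubiquitinase of the Peg3 locus, shows its promoter window because it lies back to back with that of Peg3: it is chr7:6730333-6730632 on the plus strand of GRCm38.p6, shares 263 bases with the Peg3 window on the minus strand, and is printed with CG in capitals.
Usp29: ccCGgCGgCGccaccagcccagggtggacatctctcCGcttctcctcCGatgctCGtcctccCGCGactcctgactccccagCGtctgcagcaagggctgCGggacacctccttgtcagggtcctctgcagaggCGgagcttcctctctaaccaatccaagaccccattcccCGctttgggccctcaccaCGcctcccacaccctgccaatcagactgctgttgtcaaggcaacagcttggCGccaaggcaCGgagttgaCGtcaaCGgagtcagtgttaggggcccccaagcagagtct
It holds 17 CG. Usp29 was at -2.76 and -2.66 in parental untreated, -2.52 and -2.73 in parental RA, -4.00 and -4.29 in clone untreated, and -2.07 and -1.96 in clone RA arrays. The untreated clone was the lowest group and the clone with RA the highest, while the parental groups overlapped. In the clone Usp29 was 4.38-fold higher with RA than untreated (limma, adjusted p = 0.0183). The untreated clone was below the untreated parental line by -1.44 ± 0.26 (limma, adjusted p = 0.0173). Each of these calls was kept under 13 of 19 alternatives. Both were lost with normexp and with no filter on dim probes, and the RA call also with quantile normalization. The untreated call was also lost on leaving out any single array of the groups it compares. The RA call was also lost without either untreated clone array and with only the groups compared. Peg3, a zinc finger protein, lay at -0.95 to 0.57 and did not pass, and the average RA difference was -0.16 with a 95% interval of -0.93 to 0.61. The other Peg3 probe differed by 1.17 with an interval of 0.16 to 2.17 and did not pass either (limma over all probes, adjusted p = 0.177).

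Ascl2 rose 8.06-fold with RA in the clone (limma, adjusted p = 0.0232). Igf2r rose 3.40-fold in the clone (limma, adjusted p = 0.0282) and Airn 2.98-fold (limma, adjusted p = 0.0477). The Airn call was kept under 4 of 19 alternatives and was lost with slide side as a block (limma, adjusted p = 0.0526). The dimmer Airn probe was 2.42-fold higher with RA in the clone and did not pass (limma over all probes, adjusted p = 0.281). Peg12, a GSK3-binding protein, was at -3.26 and -2.77 in parental untreated, -2.66 and -2.30 in parental RA, -3.28 and -3.05 in clone untreated, and -1.70 and -1.35 in clone RA arrays. Both clone RA arrays lay above the other 6, and the rise in the clone was 3.11-fold (limma, adjusted p = 0.0371). The call was kept under 5 of 19 alternatives, and the other Peg12 probe was 1.38-fold higher and did not pass (limma over all probes, adjusted p = 0.602). Without clone RA replicate 1, 1 of these 5 calls in the clone was kept, that of Usp29, and without either untreated clone array none was. Of the 4 average RA calls, those of Usp29, Ascl2 and Peg12 were kept without clone RA replicate 1, and none was kept without parental untreated replicate 1, parental RA replicate 1 or either untreated clone array.

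H19 had the largest RA difference in the parental line of the 27 genes, 2.98 ± 0.52, and missed the threshold (limma, adjusted p = 0.0549). It passed when the test was limited to probes above background on all arrays (limma, adjusted p = 0.0135) and with trended and robust variance (limma, adjusted p = 0.01). In the clone H19 differed by 0.14 with RA. Phlda2 was lower with RA in the clone by -1.84 ± 0.45 and did not pass (limma, adjusted p = 0.0703), although it did where only probes above background on all arrays were tested (limma, adjusted p = 0.0251).

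An interaction term, which sets the RA response of the clone against that of the parental line, called none of the 27 genes in limma, with 7 at an unadjusted p under 0.05, where 0.206% of all genes passed. The smallest adjusted p-values in limma were 0.0879 for Usp29, with a difference of 2.05 ± 0.37, and 0.113 for Igf2r, with 2.03 ± 0.42. Both passed when only probes above background on all arrays were tested (limma, adjusted p = 0.0359 and 0.0468), and under no other alternative. That setting also gave more interaction calls over all genes. This comparison goes with slide row.

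**Figure D4:**
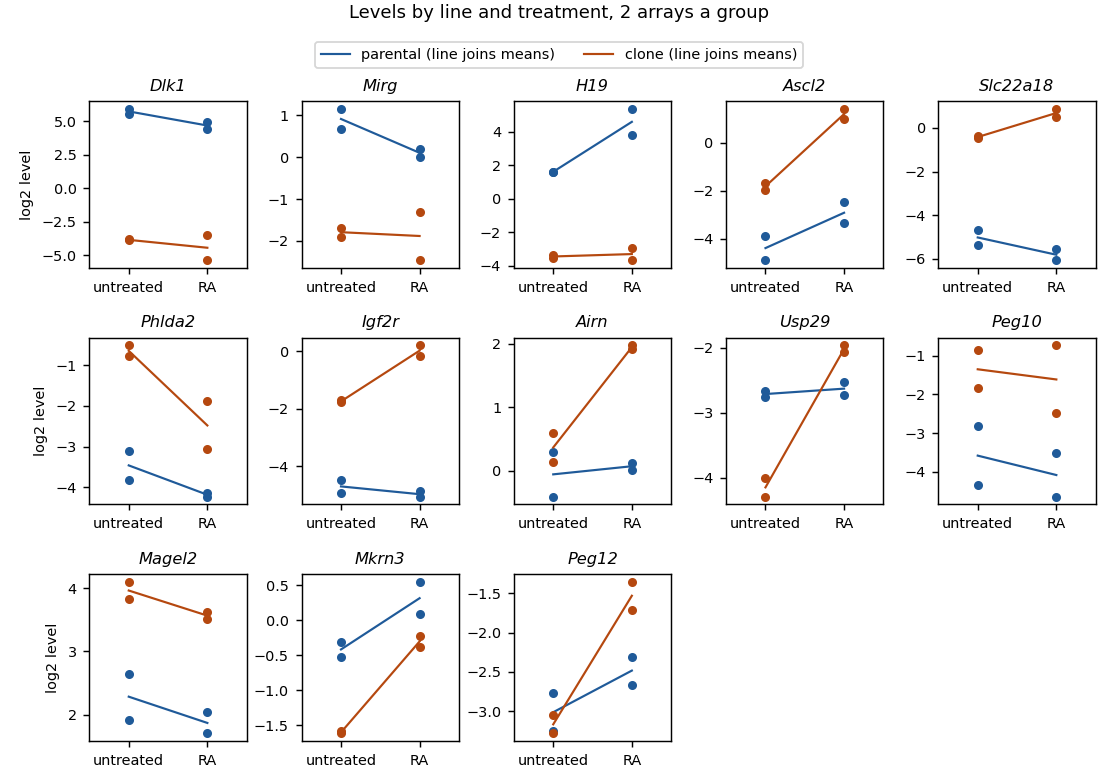
Level of each imprinted gene called in any of the 7 comparisons, untreated and with RA, as log2 intensity minus the array 75th percentile, with 1 point per array and lines joining group means. Igf2r and Airn rise with RA in the clone, H19 lies higher with RA in the parental line, and Usp29 has its lowest levels in the untreated clone.

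Among 46 other imprinted genes, 32 were tested and 13 differed between the lines on average, 10 higher and 3 lower, where 27.7% of all genes passed, with a median of 0.26 against 0.12 over all genes. Those with the smallest adjusted p were Nap1l5 (2.62 ± 0.22), Peg13 (2.21 ± 0.20), H13 (-2.32 ± 0.22), Cd81 (1.76 ± 0.18), Slc38a4 (-2.80 ± 0.36) and Herc3 (1.89 ± 0.25), with limma adjusted p from 0.000288 to 0.00198. Nap1l5 lies within Herc3, and H13 encodes a signal peptide peptidase. Cd81 lies in the Kcnq1 domain. There Kcnq1ot1, the noncoding RNA that silences the domain, differed by -0.54 ± 0.27 and did not pass (limma, adjusted p = 0.173). Cdkn1c, a cyclin-dependent kinase inhibitor of the same domain, differed by 0.33 ± 0.22 and did not pass either (limma, adjusted p = 0.309). Further genes of this domain in the list are not given singly, so these values do not stand for the domain. With RA on average 2 of 32 passed, where 5.91% of all genes did: Cdkn1c was higher by 1.21 ± 0.22 (limma, adjusted p = 0.031) and Pon3, a paraoxonase, lower by -3.20 ± 0.22 (limma, adjusted p = 0.00523).

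Of 21 tested factors that set or keep imprints, 3 were higher in the clone and 1 lower on average, 19% of the list where 27.7% of all genes passed, with a median of -0.12 against 0.12 over all genes. These were the DNA methyltransferase Dnmt3a (1.09 ± 0.21), Dppa3, which protects methylation in the early embryo (1.95 ± 0.47), the histone methyltransferase Ehmt2 (0.74 ± 0.20) and Arid4a (-1.14 ± 0.34), with limma adjusted p from 0.00863 to 0.0455. With RA on average 1 of 21 passed, where 5.91% of all genes did: Zfp445, a zinc finger protein that binds imprinting control regions, was higher by 1.26 ± 0.27 (limma, adjusted p = 0.0443).

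Of 12 tested partners of IGF and Grb10 signalling, 4 were higher and 3 lower in the clone on average, where 27.7% of all genes passed, with a median of 0.37 against 0.12 over all genes. The binding protein Igfbp2 was lower by -5.79 ± 0.28 and Igfbp5 higher by 4.07 ± 0.32, and the adaptor Grb14 was higher by 2.71 ± 0.23 (limma, adjusted p = 2.9e-05, 0.000208 and 0.000292). Igfbp6 (1.34 ± 0.23), Irs1 (-0.97 ± 0.19) and the mRNA-binding protein Igf2bp2 (2.48 ± 0.65) were also called, with limma adjusted p of up to 0.0301. With RA on average 3 of 12 passed, where 5.91% of all genes did: Grb14, Igfbp6 and Igfbp2 were lower, by -1.54 ± 0.23, -1.17 ± 0.23 and -1.36 ± 0.28 (limma, adjusted p = 0.0184, 0.0352 and 0.0387).

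Promoter windows from RefSeq were used for 27 of the 33 genes, 41 windows in all. Windows on 1 chromosome, that of Impact, were left out for the imprinted genes but kept among all windows. These counts may therefore miss windows that RefSeq holds. The letters TGCCGC, the core bound by ZFP57, searched on both strands, were in 10 of the 41 windows, from 9 genes, and in 11.6% of all windows. AAGATGGCG, a core bound by YY1, was in 1 of the 41, that of Ube3a, and in 1.4% of all windows. None of the 7 windows printed here holds either run of letters; a match or its absence in such a window is a description only.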

How the data were processed

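RNA of 8 samples was labelled and hybridised to 1-colour Agilent arrays of design 028005. Per the file headers, Feature Extraction 10.7.3.1 gave the intensity values, with background subtracted. The series table's deposited log2 values equal the log2 of those values less 1 constant per array and served as an alternative. From the intensity, log2 minus the 75th percentile over non-control spots was taken, outlier spots were left out and spots of a probe averaged; the brightest probe represented a gene. Probes well above background on at least 2 arrays were tested with limma 3.58.1 in R 4.3.3, with 1 mean per group, all 8 arrays and Benjamini-Hochberg adjustment. "At least" folds set the brighter group's mean against, per array of the dimmer group, the higher of the lowest signal well above background and the probe's own. No array had a saturated spot. The number of arrays limits the precision.

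The members and lists were chosen with earlier results of these data known. Full values are given for Dlk1, Meg3, H19, Igf2 and each member called in any of 7 comparisons, and of other lists up to 6 called genes by adjusted p. The fit was also run on simulated data whose noise was drawn from its own variance model, which cannot show whether these arrays vary that way. Replicates of a group correlated at 0.963 to 0.987 across genes. Sequences are from RefSeq, GRCm38.p6.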

Additional observations from a re-analysis of the deposited data

Results flagged for a closer look

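The RA differences of Slc22a18 had opposite signs in the lines. Like the interaction, a change of sign in this and the following flagged results goes with slide row and cannot be told apart from it. Both parental RA arrays lay below both parental untreated arrays, with a measured difference of -0.79, and both clone RA arrays above both untreated clone arrays, with 1.10. Neither passed in limma (adjusted p = 0.365 and 0.127), nor did the interaction (limma, adjusted p = 0.166). In each parental group 1 of 2 arrays was well above background, so the parental value is a difference near background.

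For Usp29 the untreated clone was below the untreated parental line, by -1.44, which passed, and the clone with RA lay above the parental line with RA, by 0.61, which did not pass (limma, adjusted p = 0.0173 and 0.144). The untreated call was kept under 13 of 19 alternatives, and was lost on leaving out any single array of the groups it compares. The groups did not overlap in either case, and the interaction did not pass in limma (adjusted p = 0.0879).

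By its brightest probe, Gnas differed between clone and parental line by -0.37 untreated and by 0.18 with RA, without overlap in either case. Neither difference passed in limma (adjusted p = 0.455 and 0.653), nor did the interaction (limma, adjusted p = 0.588). The change of sign is that of 1 probe: the probe for NM_019690 differed by 1.06 untreated, which did not pass, and by 2.65 with RA, which did (limma over all probes, adjusted p = 0.109 and 0.00273).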

How the results depend on the processing

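No paired analysis was possible because the labels give no replicate numbers, and those used here only name arrays in accession order. The arrays' position on the slide gave a block, its side, which holds 1 array of each group. That block lost the calls of Mkrn3 for the untreated lines and Airn for clone RA (limma, adjusted p = 0.0623 and 0.0526), and gained Peg10 and Peg12 for the lines in RA and H19 for the average RA effect (limma, adjusted p = 0.0471, 0.0476 and 0.0491); it changed no other imprinted gene's call. Naming genes by the gene name column was not run, since the tables used here hold none, and normexp was run on the median signal.

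Over 39 called pairs of gene and comparison, 718 alternative fits kept the call in 583 and lost it in 135, with no reversal, and 16 pairs kept the call under every alternative run. The number of imprinted genes called moved as follows. With normexp it was 5 in place of 10 for the untreated lines, 1 in place of 0 for RA in the parental line, 1 in place of 5 for clone RA, and 1 in place of 4 for the average RA effect. With no filter on dim probes, no gene was called for clone RA (0, with 9 at an unadjusted p under 0.05) or the average RA effect (0, with 9). Limited to probes that all arrays measured above background, it was 1 for RA in the parental line, 2 for the interaction and 7 for the average RA effect. With trended and robust variance it was 1 and 7 for RA in the parental line and the average RA effect, with the mean of a gene's probes 1 for RA in the parental line, with every probe a feature 3 for RA in the clone, and with only the groups compared 0 for RA in the clone (8 at an unadjusted p under 0.05). The cause was not tested.

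Leaving out 1 array at a time gave 4 to 10 calls for the untreated lines, 7 to 9 for the lines in RA, 0 to 1 for parental RA, 0 to 4 for clone RA, 0 to 0 for the interaction, 9 to 12 for the average line effect and 0 to 5 for the average RA effect, with the lone array assumed to vary like the other groups. The average RA effect had no call (0) without parental untreated replicate 1 or either untreated clone array.

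Over all genes, calls under normexp fell from 2579 to 1215 for the untreated lines, from 6086 to 3665 for the lines in RA, from 297 to 56 for RA in the parental line, from 1224 to 441 for RA in the clone, from 54 to 0 for the interaction, from 7267 to 4479 for the average line effect and from 1548 to 474 for the average RA effect. Without the filter they were 1385, 3703, 17, 0, 0 and 121 for the first 5 of these and the last. With probes above background on all arrays they were 635, 1895 and 310 for RA in the parental line, RA in the clone and the interaction, and with trended and robust variance 804, 2173, 456 and 2439 for these and the average RA effect. With only the groups compared they were 2641 for the lines in RA and 0 for clone RA; the interaction had 21 with every probe a feature and 21 with slide side as a block. Normexp moved the median of all genes in the untreated lines from 0.11 to -0.19, and quantile normalization in the RA lines from 0.11 to -0.14; the share of calls that were higher fell from 55.7% to 40.6% for clone RA and from 53.7% to 38.0% for the average RA effect under normexp.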
